A study of Mus musculus with 8 samples.

Results

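Transcripts of 9 genes were followed in mouse Paneth cells after an injection of tumor necrosis factor (TNF): the STAT factors Stat2, Stat3, Stat5a, Stat5b and Stat6, and the feedback genes Socs1, Socs2, Socs3 and Cish. They were listed by symbol, 5 STAT genes and 4 SOCS genes, and all 9 had 1 row each among the 55414 genes of the count table. Paneth cells are the granule-rich antimicrobial cells of the small intestinal crypt. They came from wild-type mice (C57BL/6J per the study's methods) that had received either phosphate-buffered saline (PBS) or TNF, and were obtained from small intestine by cell sorting 3 hours later, with 4 biological replicates in each group. TNF dose, route and age, and the sex of each animal, are not stated in the labels or methods. The methods say that the data sets used hold animals of both sexes.

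STAT proteins wait in the cytoplasm until a cytokine receptor and its JAK kinases phosphorylate them, after which they pair, enter the nucleus and switch on their targets. SOCS genes are among those targets, and their proteins bind the receptor or the kinase and shut the pathway down, so the amount of SOCS mRNA is often read as a trace of recent STAT activity. In the gut epithelium STAT3 is best known for relaying IL-22 and the IL-6 family, STAT2 for type I and III interferons, STAT6 for IL-4 and IL-13, and the STAT5 pair for growth hormone, prolactin and the IL-2 family.

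Libraries held 23824717 to 32576077 counts in PBS and 25483606 to 29039086 in TNF. TNF replicate 4 stood apart from the other TNF libraries. Its median correlation with its own group was 0.952, alpha-defensin genes took 51.4% of its counts against 32 to 37.9% in the other 7 libraries, and its TMM scaling factor was 0.448 against 0.995 to 1.36. Values below are therefore also given without it where that matters. Levels are normalized CPM, that is counts scaled to a common library size after TMM scaling. Fold changes are on the log2 scale, TNF against PBS, with the standard error (SE) and the Benjamini-Hochberg adjusted p of the quasi-likelihood test in edgeR, and a gene was called at an adjusted p under 0.05. In bulk RNA of sorted cells, more RNA of a gene per cell and more cells that make it cannot be told apart.

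Of the 9 genes, 8 were called higher in TNF, 0 were called lower and 1, Stat5b, was not called. Over all 13368 tested genes the test called 23.4% higher and 19.6% lower. For the 8 called genes every TNF library lay above every PBS library, which held for 22.4% of all tested genes. The median log2 fold change was 1.73 over the 9 genes, 0.71 over the STAT genes and 3.91 over the SOCS genes, beside 0.03 over all tested genes. All 9 passed the filter on low counts, but Socs1 passed through its TNF libraries, as it was over the filter in 1 of 4 PBS libraries. The 8 calls, the lack of overlap and the medians over the 9 genes and over the SOCS genes include Socs1. Without it the middle value of the SOCS genes is that of Cish, 3.42. Socs1, Socs3 and Cish were called with a rise of at least 8-fold, as were 1.54% of tested genes. Scaling by library size alone, which moved the median of all tested genes to -0.38 and called 757 of them (5.66%) higher and 2425 lower, called 5 of the 9 higher. With TNF replicate 4 left out, library size alone called the same 8 genes higher as TMM did. That fit called 2250 of 13726 tested genes higher and 3876 lower, with a median log2 fold change of -0.20.

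**Figure D1:**
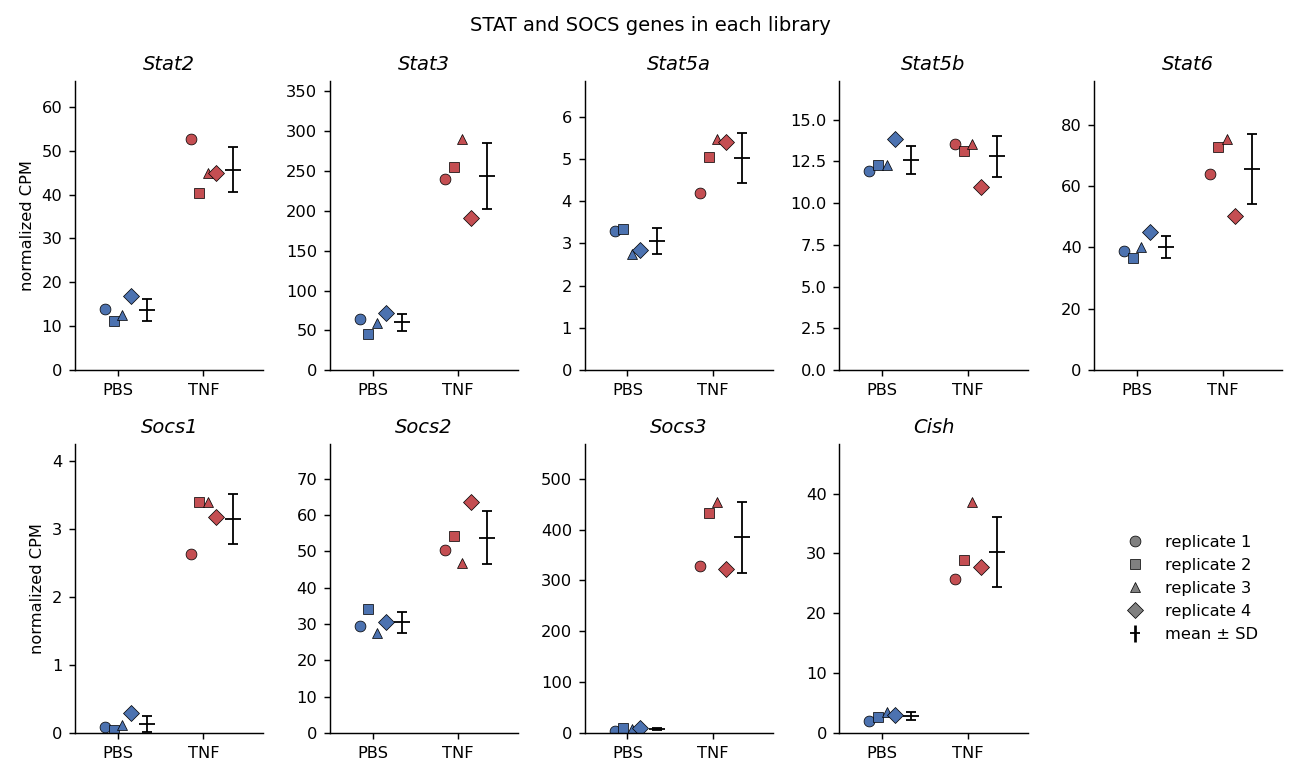
Level of each STAT and SOCS gene in each library, in normalized CPM on linear axes that start at 0 and differ in height. Blue symbols are PBS and red symbols TNF libraries, symbol shapes give the replicate number, and the black mark is the mean ± SD (n = 4). Stat5b is the one panel in which the groups overlap, and Socs3 in TNF (322 to 455) is the highest level of all.

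Socs3, whose protein docks on the shared IL-6 family receptor chain gp130 and blocks JAK kinases there, had the largest rise of the 9. It stood at 4.72, 10.1, 6.86 and 9.95 normalized CPM in PBS replicates 1 to 4 and at 328, 433, 455 and 322 in TNF replicates 1 to 4. The lowest TNF library was 31.9 times the highest PBS library. The log2 fold change was 5.60 (SE 0.29, edgeR adjusted p 3.19e-07), a 48.6-fold rise that placed Socs3 at rank 46 of all tested genes by log2 fold change. The gene (ENSMUSG00000053113) lies on chromosome 11, 117856905 to 117860898 (GRCm39), minus strand.

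Socs1, the inhibitor best known for restraining interferon receptors and their JAK kinases, was close to absent in PBS. It had 3, 1, 3 and 13 counts in PBS replicates 1 to 4, which is 0.0804, 0.0372, 0.118 and 0.294 normalized CPM. The TNF libraries had 74, 98, 97 and 37 counts, or 2.63, 3.39, 3.40 and 3.18 normalized CPM. Even the highest PBS library was far below the lowest TNF library. The log2 fold change was 4.40 (SE 0.40, edgeR adjusted p 1.23e-05), and it is less precise than that of Socs3 because the PBS group held 20 counts in all. Without the PBS library that gave 13 of these 20 counts, replicate 4, it was 5.22. Socs1 (ENSMUSG00000038037) lies on chromosome 16, 10600104 to 10603875, minus strand.

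Cish, which encodes the founding SOCS protein and is a classical STAT5 target, was low in every PBS library and rose. PBS replicates 1 to 4 had 2.06, 2.71, 3.55 and 3.03 normalized CPM, and TNF replicates 1 to 4 had 25.7, 28.9, 38.7 and 27.7. The log2 fold change was 3.42 (SE 0.20, edgeR adjusted p 5.54e-07), a 10.7-fold rise. Cish (ENSMUSG00000032578) lies on chromosome 9, 107173225 to 107179983, plus strand. In its canonical transcript 75.1% of the 75-base stretches occur in no other annotated gene, because 3 antisense noncoding genes overlap it, and it is not stated whether the counts used strand.

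Socs2, the growth hormone receptor inhibitor, had the highest normalized CPM of the 4 SOCS genes in PBS, an order that holds per kilobase of canonical transcript but not per kilobase of all annotated exons together. It had 29.5, 34.2, 27.4 and 30.6 normalized CPM in PBS replicates 1 to 4 and 50.4, 54.3, 46.7 and 63.7 in TNF replicates 1 to 4. The groups did not overlap, and the log2 fold change was 0.82 (SE 0.13, edgeR adjusted p 0.000423), a 1.77-fold rise. Under scaling by library size alone it was 0.39 and not called, and with TNF replicate 4 left out of that scaling it was 0.56 and called (edgeR adjusted p 0.00695). Socs2 (ENSMUSG00000020027) lies on chromosome 10, 95219523 to 95253929, minus strand, and 73.0% of its 75-base stretches are its own.

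Among the 5 listed STAT genes Stat3 had the highest normalized CPM and rose most. In PBS its lead holds per kilobase of canonical transcript but not per kilobase of all annotated exons together. Stat3 had 64.5, 46.0, 59.1 and 71.3 normalized CPM in PBS replicates 1 to 4 and 239, 255, 290 and 191 in TNF replicates 1 to 4. The log2 fold change was 2.02 (SE 0.18, edgeR adjusted p 9.19e-06), a 4.05-fold rise. TNF replicate 4 was the lowest TNF library and still far above all PBS libraries, and without it the log2 fold change was 2.13. Stat3 (ENSMUSG00000004040) lies on chromosome 11, 100775924 to 100830450, minus strand.

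Stat2, the STAT that joins IRF9 in the interferon-activated complex ISGF3, also rose strongly. It had 14.0, 11.3, 12.6 and 16.9 normalized CPM in PBS replicates 1 to 4 and 52.7, 40.4, 44.8 and 44.8 in TNF replicates 1 to 4. The log2 fold change was 1.73 (SE 0.15, edgeR adjusted p 7.32e-06), a 3.33-fold rise. Here TNF replicate 4 lay in the middle of its group. Stat2 (ENSMUSG00000040033) lies on chromosome 10, 128106352 to 128128735, plus strand, and all of its 75-base stretches are unique to it.

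Stat6 and Stat5a rose less. Stat6, the IL-4 and IL-13 factor, had 39.0, 36.7, 40.0 and 45.0 normalized CPM in PBS replicates 1 to 4 and 63.8, 72.6, 75.3 and 50.3 in TNF replicates 1 to 4, which gave a log2 fold change of 0.71 (edgeR adjusted p 0.00214, SE 0.14). Its lowest TNF library, replicate 4, came close to its highest PBS library, replicate 4. Stat5a had 3.30, 3.35, 2.76 and 2.85 normalized CPM in PBS and 4.19, 5.05, 5.47 and 5.41 in TNF, which also gave 0.71 (edgeR adjusted p 0.00420, SE 0.16). Both rises were small enough to depend on the scaling. Under library size alone Stat6 was at 0.36 and Stat5a at 0.31, neither called, and without TNF replicate 4 the same scaling gave 0.64 (edgeR adjusted p 0.00794) and 0.51 (edgeR adjusted p 0.0421), both called. Stat6 (ENSMUSG00000002147) lies on chromosome 10, 127477821 to 127496862, plus strand.

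Stat5b was the one gene of the 9 without a call. It had 11.9, 12.3, 12.3 and 13.8 normalized CPM in PBS replicates 1 to 4 and 13.5, 13.1, 13.5 and 10.99 in TNF replicates 1 to 4, with overlap between the groups. The log2 fold change was 0.03 (SE 0.12, edgeR adjusted p 0.863), and its sign changed with the scaling, as it was -0.34 under library size alone, where the median of all genes was -0.38. The closely related neighbours Stat5a and Stat5b thus had different calls. They sit back to back on chromosome 11, Stat5b (ENSMUSG00000020919) at 100671556 to 100741589 on the minus strand and Stat5a (ENSMUSG00000004043) at 100750177 to 100776065 on the plus strand, with 8587 bases between them. On its other side the end of Stat5a runs 142 bases into the end of Stat3. How reads that match more than 1 gene were counted is not stated. Of the 75-base stretches 84.3% are unique for Stat5a and 92.3% for Stat5b, so single counts of this pair carry that uncertainty.

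**Figure D2:**
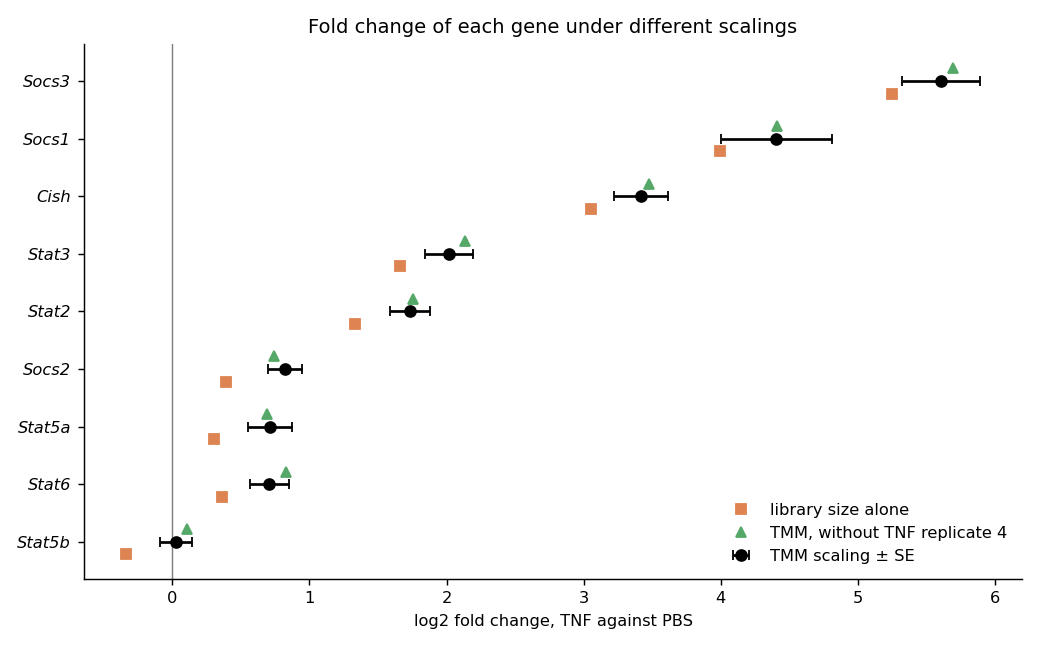
Log2 fold change of each gene, TNF against PBS, with TMM scaling (black circles, bars are ± SE), with library size alone (orange squares) and with TMM scaling without TNF replicate 4 (green triangles). The order of the large rises is the same under all 3, library size alone shifts all 9 genes to the left, and it takes Stat5b below 0.

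The change of the STAT genes relative to each other does not depend on the scaling of a library, so 5 pairs were compared within libraries. The log2 ratio of counts per kilobase of canonical transcript was used, with 0.5 added to each count. The length used sets the level of a ratio but cancels in the difference between the groups. A two-sided exact permutation test over the 70 assignments of 4 against 4 libraries was used, which cannot give a p below 0.0286, with adjustment over the 5 pairs. The ratio of Stat5a to Stat5b counts per kilobase was 0.357, 0.352, 0.290 and 0.266 in PBS replicates 1 to 4 and 0.400, 0.496, 0.521 and 0.636 in TNF replicates 1 to 4. All TNF ratios were above all PBS ratios, and the log2 difference was 0.69 (exact permutation p = 0.0286, adjusted p = 0.0357). The ratio of Stat3 to Stat5b counts per kilobase was 4.18 to 6.02 in PBS and 19.3 to 23.9 in TNF, a log2 difference of 2.00 (exact permutation p = 0.0286, adjusted p = 0.0357).

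For Stat2 against Stat6, the interferon factor against the IL-4 factor, the ratio per kilobase was 0.262 to 0.321 in PBS and 0.474 to 0.759 in TNF, a log2 difference of 1.05 (exact permutation p = 0.0286, adjusted p = 0.0357). Cish and Socs2, both known as STAT5 targets, also changed unequally. The ratio of Cish to Socs2 counts per kilobase was 0.0491, 0.0556, 0.0905 and 0.0692 in PBS replicates 1 to 4. In TNF replicates 1 to 4 it was 0.355, 0.371, 0.576 and 0.303, a log2 difference of 2.60 (exact permutation p = 0.0286, adjusted p = 0.0357). Socs3 against Socs1 was the one pair whose groups overlapped. Its ratio per kilobase ranged from 39.9 to 222 in PBS, where Socs1 had few counts, and from 122 to 163 in TNF, a log2 difference of 0.95 (exact permutation p = 0.143, adjusted p = 0.143). With 2 in place of 0.5 added to each count the difference was 1.46 and passed (exact permutation adjusted p = 0.0286), so the call depends on the number added.

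Levels of different genes were compared per kilobase of canonical transcript, in normalized CPM per kilobase. In PBS the order was Stat3 (13.2), Socs2 (12.0), Stat6 (10.5), Stat2 (3.04), Socs3 (2.97), Stat5b (2.47), Cish (0.778), Stat5a (0.774) and Socs1 (0.0406). Neighbours in this order differed beyond the range of the 4 libraries at 3 steps, from Stat6 to Stat2, from Stat5b to Cish and from Stat5a to Socs1. In TNF the order was Socs3 (144), Stat3 (53.4), Socs2 (21.2), Stat6 (17.1), Stat2 (10.1), Cish (8.29), Stat5b (2.51), Stat5a (1.27) and Socs1 (0.966). Here the ranges overlapped for Socs2 with Stat6 and for Stat2 with Cish. Socs3 moved from the fifth place to the first. Socs1 was last in both groups with its 21.2-fold rise, an imprecise figure that rests on 20 PBS counts in all. With the union of annotated exons as the length, a choice added after the data were seen, Socs3 and Stat3 were again first and second in TNF, but Socs2, whose length goes from 2.54 to 15.3 kilobases, fell to rank 5 in PBS and 6 in TNF. With that length Stat6 (6.01) and Stat3 (5.97) in PBS had overlapping ranges, as had Socs3 (2.22) and Stat2 (2.17), and in TNF Socs1 (0.931) lay above Stat5a (0.609), which was then last.

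**Figure D3:**
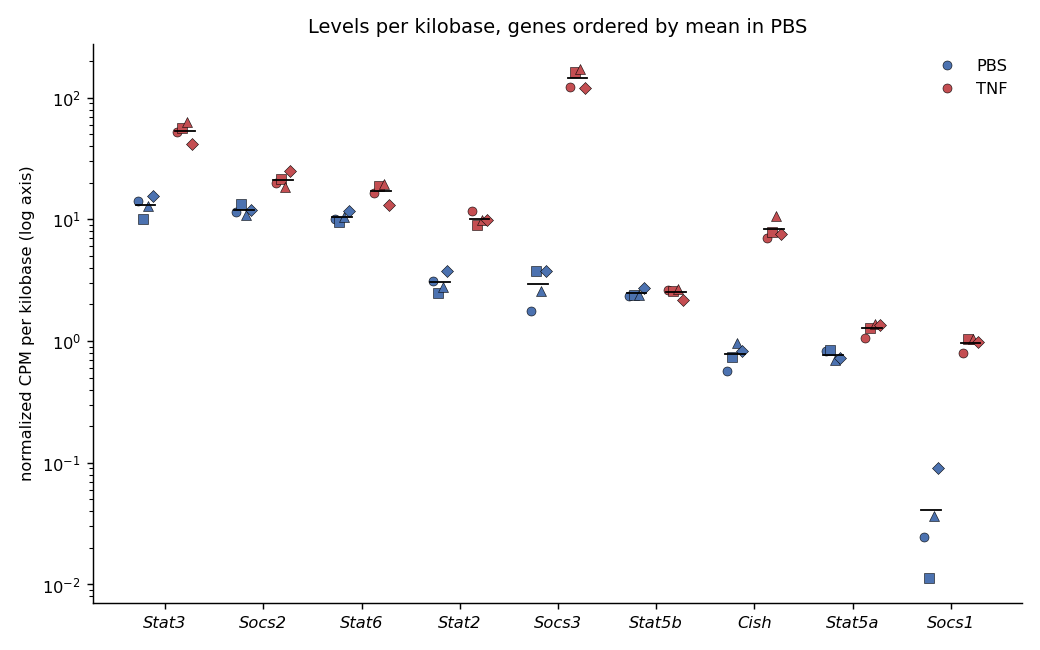
Level of each gene in each library in normalized CPM per kilobase of canonical transcript, on a log axis, with genes ordered by their mean in PBS. Blue symbols are PBS, red symbols TNF, symbol shapes are replicates 1 to 4 as circle, square, triangle and diamond, and black lines are means (n = 4). Socs3 goes from the middle of the order to the top, and Stat5b is the gene whose red and blue symbols lie at the same height.

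As shares of the summed level per kilobase of the 5 listed STAT genes, which also do not depend on library scaling, Stat3 made up 43.8% ± 2.88 in PBS and 63.1% ± 1.89 in TNF (SD, n = 4). Stat6 went from 35.1% ± 1.97 to 20.2% ± 1.04 and Stat5b from 8.31% ± 0.819 to 2.99% ± 0.198, so a STAT gene whose mRNA rose (Stat6) took a smaller share of the family. Stat2 was at 10.1% ± 0.575 and 12.2% ± 2.31, within ranges that overlap. Of the 4 SOCS genes, Socs2 held 76.3% ± 4.74 in PBS and 12.4% ± 3.02 in TNF, while Socs3 held 18.5% ± 4.31 and 82.3% ± 3.07. Cish was at 4.98% ± 1.26 and 4.74% ± 0.491. With the union of exons as the length, Stat3 and Stat6 held 36.3% ± 2.65 and 36.9% ± 1.80 of the STAT sum in PBS, with overlapping ranges, and 55.1% ± 2.24 and 22.4% ± 1.34 in TNF, while Stat5b went from 11.2% ± 1.02 to 4.26% ± 0.238. Of the SOCS sum Socs2 and Socs3 then held 43.3% ± 7.09 and 46.3% ± 7.17 in PBS, with overlapping ranges, and 3.11% ± 0.840 and 92.1% ± 1.10 in TNF. Cish was then at 9.55% ± 2.25 in PBS and 4.03% ± 0.424 in TNF, with no overlap. Shares thus depend on the length used, and so do the lead of Stat3 and that of Socs2 in PBS, while Stat3 and Socs3 led in TNF with both lengths. These shares are a description and were not tested.

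**Figure D4:**
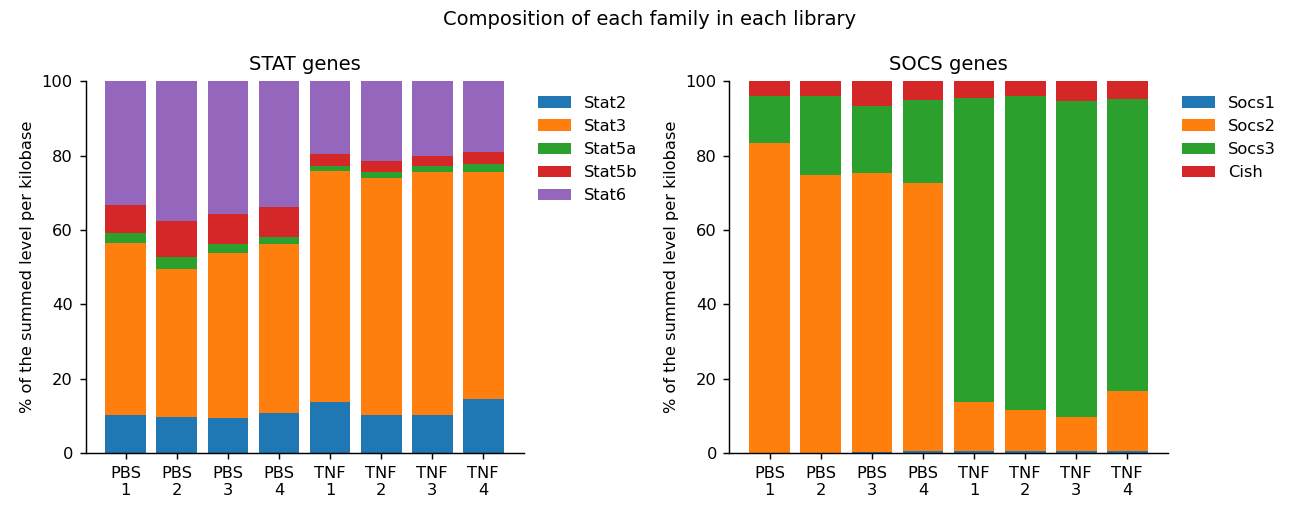
Stacked bars of the percentage that each gene takes of the summed level per kilobase of canonical transcript, for the STAT genes (left) and the SOCS genes (right) in each of the 8 libraries. In every TNF library Stat3 takes 61.1 to 65.4% of the STAT sum and Socs3 takes 78.2 to 85.0% of the SOCS sum.

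Promoter sequence was examined because STAT factors bind short known motifs. RefSeq windows from 250 bases before to 50 bases after the start (table built on GRCm38.p6, located on GRCm39 by exact match) were found for 8 of the 9 genes, in 10 windows, and not for Socs2. Both strands were searched for the GAS motif of STAT dimers (TTCNNNGAA), the form with 1 more spacer base that STAT6 favours (TTCNNNNGAA), the core of the interferon-stimulated response element bound by ISGF3 (ISRE, GAAANNGAAA) and the NF-kB consensus. Among all 32544 windows of 300 bases, 8.33% held GAS, 6.98% the longer-spaced form, 3.45% the ISRE core and 8.49% the NF-kB consensus. The stretches of 30 bases that hold the matches of the SOCS genes and Stat2 are printed 5′ to 3′ on the gene's own strand (GRCm39), with the motif letters in capitals, since Socs3, Cish and Socs1 were the genes with the largest rises.
Socs3, chr11:117860327-117860356, minus strand: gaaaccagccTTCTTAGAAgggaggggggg
Cish, chr9:107173853-107173882, plus strand: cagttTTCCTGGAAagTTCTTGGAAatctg
Socs1, chr16:10603461-10603490, minus strand: cttgccgGAAAGAGAAACCGAAAgcggggg
Stat2, chr10:128106141-128106170, plus strand: ctggTTTCAGTTTCctTTCCCTAGAActca

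Socs3 had 1 GAS match, TTCTTAGAA, which begins 154 bases before the RefSeq start. Cish had 2, TTCCTGGAA and TTCTTGGAA, at bases 1 to 9 and 12 to 20 counted from the RefSeq start, and 0.461% of all windows held 2 or more. The GENCODE canonical transcript of Cish starts upstream of that, at 107173225. Socs1 had no GAS but 2 ISRE cores, GAAAGAGAAA and GAAACCGAAA, which overlap each other and begin 83 and 77 bases before the start, where 0.221% of all windows held 2 or more. Stat2 had an ISRE core on the opposite strand (TTTCAGTTTC as printed) that begins 222 bases before the start, followed by a longer-spaced GAS, TTCCCTAGAA. The printed stretches of Socs3, Cish and Socs1 lie within exons that GENCODE annotates for the same gene, and that of Stat2 does not. The windows of Stat3, Stat6 and Stat5b held none of the 4 motifs, and of the 2 windows of Stat5a 1 held an NF-kB match. A match is a string of letters in this window and not evidence of binding.

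The kinases that phosphorylate STAT proteins were next. Of the 4 JAK genes Jak1, Jak2 and Jak3 rose and Tyk2 fell. For this and the following lists the shares over all tested genes were 23.4% called higher and 19.6% lower. Jak2, the kinase of growth hormone and interferon gamma receptors, rose from 29.2 ± 5.88 to 106 ± 24.2 normalized CPM (SD, n = 4), which is 1.86 on the log2 scale (edgeR adjusted p 2.99e-05). Jak3, which partners the common gamma chain, was at 3.14 ± 0.200 and 7.28 ± 0.875, or 1.21 on the log2 scale (edgeR adjusted p 7.55e-05). Jak1 rose by 0.82 on the log2 scale (edgeR adjusted p 0.000300). Tyk2, the kinase at interferon and IL-10 family receptors, was at 22.7 ± 1.12 and 17.0 ± 1.74, or -0.42 on the log2 scale (edgeR adjusted p 0.0102). Under library size alone 1 of the 4, Jak2, was called, with Jak1 at 0.41, Jak3 at 0.79 and Tyk2 at -0.84.

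On the receptor side, 18 of 31 listed genes for receptors that signal through STATs passed the filter, and 10 were called higher, 2 lower and 6 not, with a median log2 fold change of 0.92. Leaving aside Osmr and Lifr, each of which passed through 1 group, 9 of 16 were called higher and 2 lower. Il6st, the gp130 chain to which SOCS3 binds, rose from 28.3 ± 4.09 to 166 ± 29.6 normalized CPM (SD, n = 4), which is 2.55 on the log2 scale (edgeR adjusted p 1.41e-06). Its partner for oncostatin M, Osmr, had 4, 1, 0 and 2 counts in PBS and 368, 647, 484 and 191 in TNF, and passed the filter through the TNF libraries. The interferon gamma receptor chain Ifngr2 rose from 23.6 ± 0.693 to 71.7 ± 10.3 normalized CPM, or 1.60 on the log2 scale (edgeR adjusted p 3.86e-06). Il6ra, the chain that lets gp130 bind IL-6, fell by 2.18 on the log2 scale (edgeR adjusted p 0.000292). It had 7.64, 6.69, 7.41 and 15.04 normalized CPM in PBS and 1.56, 2.01, 2.98 and 1.37 in TNF, so the chains of the IL-6 receptor moved in opposite directions.

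Of 25 listed ligands 4 passed the filter, with Lif and Il7 called higher, 0 called lower and a median log2 fold change of 1.05 (1.69 over the 3 that remain without Il15, which passed through the TNF libraries). Lif, a gp130 ligand, went from 0.987 ± 0.102 to 3.17 ± 0.927 normalized CPM (log2 fold change 1.69, edgeR adjusted p 0.000256), and Il7, a STAT5-activating cytokine, from 0.536 ± 0.136 to 3.15 ± 0.390 (log2 fold change 2.51, edgeR adjusted p 1.57e-05). Ctf1, another gp130 ligand, was at 2.76 ± 0.341 and 2.03 ± 0.115 and was not called (edgeR adjusted p 0.0633). In all 8 libraries 12 ligands had 0 counts, among them Il6, Il22, Ifnb1 and Ifng. A count of 0 in libraries of this depth bears on these sorted cells and not on the tissue around them.

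The other members of the SOCS family, Socs4, Socs5, Socs6 and Socs7, gave no call, with a median log2 fold change of 0.10. Socs4 was at 0.27 (edgeR adjusted p 0.129), Socs6 at 0.19 (edgeR adjusted p 0.329) and Socs7 at -0.03 (edgeR adjusted p 0.893). The signs of all 3 depend on the setting, with Socs4 at -0.0909 and Socs6 at -0.16 under library size alone and Socs7 at 0.11 without TNF replicate 4. At unadjusted p under 0.05 the same test gave 0 of the 4, and both DESeq2 and limma-voom called 0, but without TNF replicate 4 edgeR called Socs4 (0.36) and Socs6 (0.31) higher. Of 12 other attenuators (phosphatases, PIAS proteins and related genes) 5 were called higher and 1 lower, with a median of 0.12, beside 23.4% and 19.6% of all tested genes. The phosphatases Ptpn1 (log2 fold change 2.12, edgeR adjusted p 7.74e-06) and Ptpn2 (1.72, edgeR adjusted p 4.16e-06) act on JAK kinases and STATs and rose, as did Usp18, the brake on the type I interferon receptor (2.92, edgeR adjusted p 1.12e-05). Pias3, named for its binding to STAT3, fell by 0.58 on the log2 scale (edgeR adjusted p 0.0141). Without TNF replicate 4, 2 attenuators were called lower, Pias3 and the phosphatase Ptpn6.

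Known target genes were counted in 3 further lists, many of which answer to other factors as well, NF-kB included. Of 26 genes listed as STAT3-responsive 20 were tested, with 16 called higher, 0 lower and a median of 2.06. Leaving aside 4 that passed the filter through the TNF libraries (Lcn2, Lrg1, Steap4 and Fgb), 12 of 16 were called higher and the median was 1.75. Junb, an AP-1 subunit, rose from 26.8 ± 5.24 to 274 ± 31.4 normalized CPM (SD, n = 4; log2 fold change 3.35, edgeR adjusted p 3.26e-07), and Cebpd, an acute-phase transcription factor, from 3.01 ± 0.277 to 41.0 ± 6.01 (log2 fold change 3.77, edgeR adjusted p 9.95e-08). Steap4, a metalloreductase, had the largest log2 fold change of the list, 7.70 (edgeR adjusted p 3.19e-07).

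Of 24 genes listed as responsive to ISGF3, the complex that holds STAT2, 20 were tested, with 16 called higher, 0 lower and a median of 1.29. This count was 8 under library size alone, 17 under that scaling without TNF replicate 4 and 11 with a filter of 1 CPM in 4 or more libraries. The 1 CPM filter tested 11925 genes in all and did not test Oas3, so its count is not out of 20. Leaving out TNF replicate 4 also changed which genes were tested (13726 in all). Without 5 that passed through the TNF libraries (Ifit1, Oas2, Oas3, Rsad2 and Trim30a), 11 of 15 were called higher and the median was 1.14. Rtp4 rose from 1.15 ± 0.198 to 12.7 ± 1.37 normalized CPM (SD, n = 4; log2 fold change 3.49, edgeR adjusted p 2.49e-07). Isg15, the ubiquitin-like modifier, rose from 0.431 ± 0.0854 to 3.19 ± 0.236 (2.89, edgeR adjusted p 4.36e-06), and Zbp1, a sensor of Z-form nucleic acid, from 6.46 ± 0.757 to 21.4 ± 2.75 (1.72, edgeR adjusted p 5.10e-06). Most members of this list were expressed at a low level, and their sum was 78.6 to 85.1 normalized CPM in PBS and 174 to 197 in TNF.

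Of 17 genes listed as responsive to STAT5 or STAT6 9 were tested, with 2 called higher, 2 lower, 5 not called and a median of 0.16, shares near those of all tested genes (23.4% higher and 19.6% lower). Leaving aside Il4i1 and Retnlb, which passed the filter through 1 group, 1 of 7 was called higher and 2 lower, with a median of -0.07. Of the 2 called lower, Igfals and Ccnd2, a cyclin, the call of Ccnd2 (-0.47, edgeR adjusted p 0.0482) was marginal, and 1 gene was called lower under RLE scaling, library size alone and without any 1 PBS library, TNF replicate 2 or TNF replicate 3. Il4i1, an amino acid oxidase induced by IL-4, rose from 0.464 ± 0.135 to 3.37 ± 0.974 normalized CPM (SD, n = 4; log2 fold change 2.81, edgeR adjusted p 3.40e-05), passing the filter through its TNF libraries. Id1 changed by 0.89 (edgeR adjusted p 0.00414) with TNF replicate 4 far above the rest of its group, and was at 0.41 and not called under library size alone. Igfals, a growth hormone target that carries IGF in blood, fell by 1.30 on the log2 scale (edgeR adjusted p 0.000763), so the classical STAT5 targets Cish and Igfals moved in opposite directions.

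**Figure D5:**
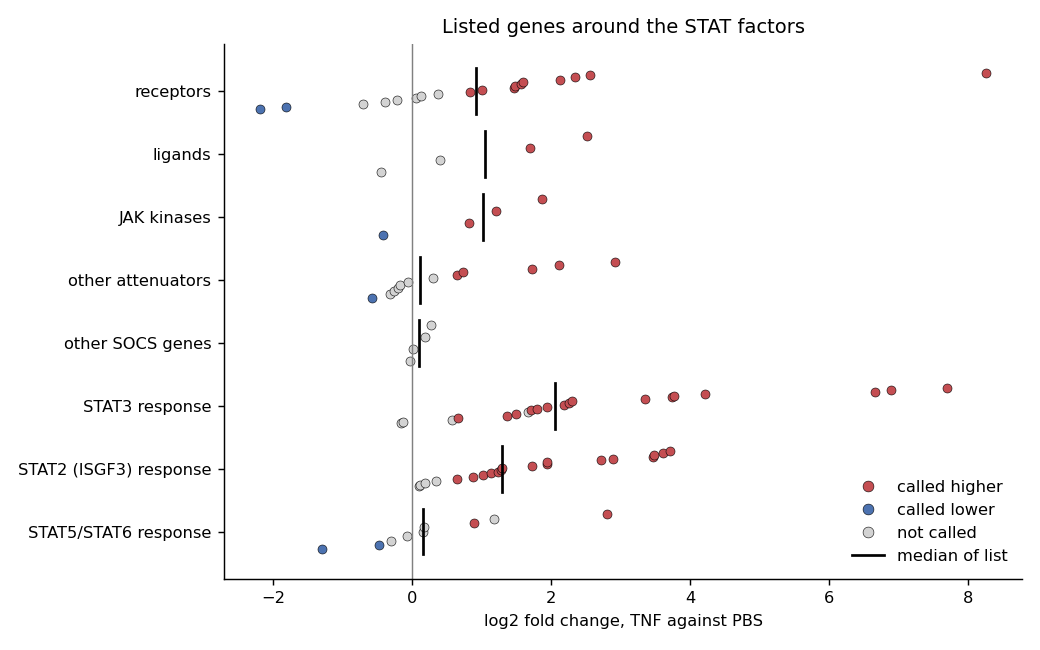
Log2 fold change, TNF against PBS, of each tested gene in the 8 lists around the STAT factors. Red points were called higher, blue points lower and grey points not called (edgeR, adjusted p under 0.05), and the black line is the median of a list. The lines include genes that passed the filter through 1 group, without which the medians of the ligand list and of the STAT3, STAT2 and STAT5 or STAT6 response lists are 1.69, 1.75, 1.14 and -0.07, and Osmr is the point at the far right.

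Across the 8 libraries the protein-coding gene whose log2 CPM followed that of each member most closely, among 11671 compared, was named as a description, since groups of libraries alone make many genes correlate. Stat3 was closest to Il6st (Pearson r 0.998), Socs3 to Junb (0.999), Cish to Spindoc (0.998), Socs1 to Tanc1 (0.997) and Stat2 to Ripk2 (0.995). Stat6 was closest to Sowahc (0.994), Socs2 to Tmem165 (0.992), Stat5b to Egln2 (0.986) and Stat5a to Uchl3 (0.977).

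Markers of other cells were read beside these values, since immune cells express STAT and SOCS genes as well. Of 14 immune markers 9 were at 0 counts in all 8 libraries, among them Cd3e, Cd79a, Adgre1 and S100a8, while Ptprc, Cd68 and Itgam had at most 14 counts in a library. The other 2 were tested, with Ms4a1 called higher at no more than 1.12 normalized CPM and Lyz2 not called. The summed immune markers were at 7.01 to 12.6 normalized CPM in PBS, at 10.2 to 13.7 in TNF replicates 1 to 3 and at 66.5 in TNF replicate 4, where Lyz2 made up 64.3. Lyz1, a Paneth cell marker, was at 454156 normalized CPM in that library and at 118933 to 165910 in the others. How any reads shared by Lyz1 and Lyz2 were counted is not stated, and their part in the Lyz2 value was not tested. Of 9 stromal markers 1 was tested, Vim, which was called higher at no more than 1.35 normalized CPM, and the stromal sum was 0.276 to 0.452 in PBS and 1.23 to 1.87 in TNF. Enteroendocrine markers were at a sum of 25.5 to 33.9 in PBS, 47.7 to 56.8 in TNF replicates 1 to 3 and 123 in TNF replicate 4, with 3 of 5 tested genes called higher. Goblet markers were at 3681 to 5938 and 6391 to 7626 with 2 of 7 called higher and 2 lower. Stem cell markers were at 1454 to 2351 and 1312 to 1855, with 4 of 5 called lower. Enterocyte markers were at 250.2 to 276 and 266 to 296, with 1 of 8 called lower, and tuft markers at 11.9 to 27.4 in PBS, 7.58 to 14.7 in TNF replicates 1 to 3 and 52.9 in TNF replicate 4, with 0 of 3 called. The part of these shifts in the STAT and SOCS values was not tested.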

How the data were processed

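Sorted Paneth cells of 4 PBS and 4 TNF replicates were used for RNA isolation (Aurum kit) and TruSeq Stranded mRNA libraries. The authors deposited raw counts per Ensembl gene, with 1 column per library and no normalization. The submitters' processing notes name mm39, FastQC 0.12, STAR 2.7.10a and DESeq2. The counter, its use of strand and its treatment of shared reads are not given in the sources used. Replicates are described as biological and no more is said of them, so p-values measure the spread between these libraries.

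Symbols and positions came from GENCODE vM39 (GRCm39), which matched 54749 of 55414 IDs. Genes passing filterByExpr (13368) were tested between TNF and PBS with edgeR 4.0.16 (quasi-likelihood F test, TMM scaling, no covariate) in R 4.3.3. All 9 members and, per pathway list, the 3 genes with the smallest p and the called genes with the largest rise and fall were named, together with the gene most alike each member by Pearson correlation of log2 CPM (prior count 2). Other genes were chosen after their values were seen. The members and lists were chosen with earlier results of these data known. Uniqueness is the share of 75-base stretches of the canonical transcript found in no other gene of that release. The procedure was tested on simulated data.

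Alternatives were RLE scaling, library size alone, TMM without Defa genes, DESeq2 1.42.0, limma-voom (limma 3.58.1), a filter of 1 count in total or of 1 CPM in 4 or more libraries, the replicate number as a block and each library left out. Library size alone without TNF replicate 4, and the union of exons as length, were added after seeing the data. No libraries were duplicates (lowest chi-square per degree of freedom within a group 8.77).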

Additional observations from a re-analysis of the deposited data

Results flagged for a closer look

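In groups of 4 libraries, 84 groups of values (9 members, the named genes and ratios) were examined for a library far from the other 3 by Dixon's criterion, and 7 met it, where chance gives about 1 in 20 groups, or 4.2. TNF replicate 4 accounted for 3 of the 7. Stat5b was at 10.99 normalized CPM there against 13.1 to 13.5 in the other TNF libraries, Socs4 at 14.5 against 18.2 to 18.7, and Id1 at 11.6 against 6.64 to 6.77. In PBS, replicate 4 was apart for Il6ra at 15.04 normalized CPM (6.69 to 7.64 in the others) and for Socs7 at 30.7 (22.2 to 23.6). PBS replicate 3 was apart for Tyk2 at 21.1 (23.1 to 23.5), and PBS replicate 2 for Steap4 at 0.0744 (0.317 to 0.355).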

How the results depend on the processing

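Of the 9 members 8 were called higher under every alternative that kept TMM or another composition-aware scaling and in each fit without 1 library, and 5 under library size alone, where the median log2 fold change of all genes went from 0.03 to -0.38 and 757 genes were called higher and 2425 lower (3122 and 2625 with TMM). The 3 lost calls, Stat5a (0.31), Stat6 (0.36) and Socs2 (0.39), were made again under library size alone without TNF replicate 4. That fit called 2250 of 13726 tested genes higher and 3876 lower. Stat5b was not called under any alternative, and its log2 fold change changed sign at -0.34 (library size alone), -0.0805 (library size alone without TNF replicate 4), -0.00797 (at least 1 count in total) and between -0.0245 and 0.10 without 1 library. Socs4 (-0.0909) and Socs6 (-0.16) changed sign under library size alone, and both were called higher without TNF replicate 4 (0.36 and 0.31). Socs7 ranged from -0.11 to 0.11 without 1 library, with 0.06 without PBS replicate 4. Of the 142 listed pathway genes, some of them untested, 54 were called higher and 6 lower in the main fit. These counts were 52 to 57 and 5 to 7 without 1 library, and 37 and 4 under library size alone. Under that scaling without TNF replicate 4 they were 54 and 9. They include genes that passed the filter through 1 group, and over all tested genes the main fit called 23.4% higher and 19.6% lower. Under library size alone the ISGF3 list went from 16 to 8 called higher, the attenuators from 5 to 3, the JAK kinases from 3 to 1 and the STAT5 or STAT6 list from 2 to 1. The STAT5 or STAT6 genes called lower went from 2 to 1 under RLE scaling, library size alone, the replicate block and 6 of the 8 fits without 1 library, the JAK kinases called lower from 1 to 0 under library size alone, and the attenuators called lower from 1 to 2 without TNF replicate 4 under either scaling. The cause of these differences was not tested.

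Replicate numbers did not pair the libraries (same-number correlations 0.023, 0.066, -0.144 and -0.126), and the fit with the replicate block called the same 8 members higher, with 2741 and 2346 genes higher and lower over all genes. For ratios under the block, the exact sign-flip test cannot give a p below 0.125, so that 0.69 (Stat5a to Stat5b), 2.00 (Stat3 to Stat5b), 1.05 (Stat2 to Stat6) and 2.60 (Cish to Socs2) all had an adjusted p of 0.156. Without 1 library these log2 differences ranged over 0.58 to 0.80, 1.89 to 2.06, 0.94 to 1.16 and 2.41 to 2.76, with adjusted exact p of 0.0571 to 0.0714 in a design that then cannot pass. Socs3 to Socs1 was 1.46 with 2 added to each count, and then passed (exact permutation adjusted p 0.0286), and 0.64 to 1.47 without 1 library. Depth limits Socs1 in PBS, with 1 to 13 counts a library. DESeq2 and limma-voom made the same member calls.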
